A study of Mus musculus with 16 samples.

Results

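Genes of the ATF4 arm of the integrated stress response and of amino acid supply are described here across mouse lung alveolar type 2 (AT2) cells, the surfactant-producing cells of the air sacs, sorted by the surface protein CD44. The list holds 37 genes, chosen by symbol and known role, with earlier results of these data known: ATF4 and CHOP with their partners, enzymes that make serine, glycine, proline and asparagine, amino acid transporters and stress cytokines. All 37 were found among the 27179 gene identifiers of the count table. 36 of them had enough counts to be among the 15516 genes tested, and the hormone gene Fgf21 did not.

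The study compared AT2 cells from control lungs with those of Sftpc mutant lungs, where Sftpc encodes surfactant protein C, and asked how CD44+ AT2 cells differ from CD44- AT2 cells during fibrosis. Live cells were sorted as CD45-, CD31-, CD104-, Epcam+ and CD200hi, then split by CD44, and total RNA depleted of ribosomal RNA was sequenced from 4 control and 4 mutant animals, giving 16 libraries. The labels give the genotypes as SP-C WT and SP-C Mutant and the treatment of all 16 samples as OG TMX. The strain, age and sex of the mice, the time of harvest and the Sftpc allele are not given in the sources used here. The count table names its libraries by the prefixes R26 and OG, an animal number and the sort, and no label ties a prefix to a genotype. R26 was read as the control and OG as the Sftpc mutant from background knowledge of Rosa26 alleles. The letters OG also stand in the treatment label shared by all 16 samples, which does not tell the prefixes apart. Each group, of 4 libraries, is named by its prefix and its sort, as in R26 CD44- or OG CD44+. Were the reading of the prefixes wrong, every OG against R26 difference would change sign relative to genotype. The CD44 comparisons within a prefix would stand.

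As background, cells meet several kinds of stress, such as unfolded protein in the endoplasmic reticulum, lack of amino acids, lack of heme or viral RNA, with kinases that phosphorylate the translation factor eIF2alpha. Protein synthesis then slows as a whole, while the mRNA of the transcription factor ATF4 is translated better, so that ATF4 activity is set in large part after transcription. ATF4, with C/EBP family partners, switches on genes that bring in and make amino acids, charge tRNAs, and later shut the response down, and CHOP (encoded by Ddit3) adds a set of targets under lasting stress. Misfolded surfactant protein C is a known cause of stress in AT2 cells.

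ATF4 binds composite sites called C/EBP-ATF response elements, and the windows below show where the core letters TGATGNAA occur just upstream of members. The motif was searched on both strands in the 250 bases before each start that the RefSeq promoter table gives for a gene (GRCm38.p6). It was found in 7 of the 31 members with a promoter entry, 22.6%, and in 1056 of 27025 genes with an entry, 3.91%. The windows are written 5′ to 3′ along the gene's strand, with the match in capitals; TTGCATCA is the match read on the other strand.
Nupr1, chr7:126625547-126625606, minus strand: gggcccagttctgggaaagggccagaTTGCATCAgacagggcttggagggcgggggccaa
Chac1, chr2:119351023-119351082, plus strand: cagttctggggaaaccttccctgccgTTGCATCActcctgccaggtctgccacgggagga
Vldlr, chr19:27216794-27216853, plus strand: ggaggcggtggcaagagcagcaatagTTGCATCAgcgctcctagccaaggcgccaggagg
Asns, chr6:7693210-7693258, minus strand: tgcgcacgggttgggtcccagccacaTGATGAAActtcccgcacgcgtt
Pycr1, chr11:120643818-120643877, minus strand: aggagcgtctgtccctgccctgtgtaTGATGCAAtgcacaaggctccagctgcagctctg
Got1, chr19:43524674-43524733, minus strand: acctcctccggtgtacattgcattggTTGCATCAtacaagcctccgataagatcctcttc
Fgf21, chr7:45615596-45615655, minus strand: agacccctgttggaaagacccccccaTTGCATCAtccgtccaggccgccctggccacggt
The match lies 23 bases before the gene start in Asns, between 102 and 139 bases before it in Got1, Pycr1, Nupr1 and Fgf21, and 193 bases before it in Chac1. Vldlr has 2 starts in the table, and its match lies 200 bases before the downstream one, inside the annotated gene, which begins at chr19:27216480. Eif4ebp1, Aldh1l2, Cth, Slc7a3, Slc7a5 and Slc1a5 had no entry. A match is a run of letters and not a measured binding site, and no match in this window says nothing about ATF4 binding.

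Total counts ran from 9022471 to 21363816 per library. Levels are given as CPM, the count scaled to a common library total after TMM scaling between libraries. Values with ± are the mean and SD over 4 libraries, or a log2 fold change and its SE, and libraries are listed in the order of animals 1, 2, 7 and 8 (R26) and 3, 5, 6 and 7 (OG). All 10 AT2 markers were present in every group, and their summed level differed between groups, from 162317 to 191939 CPM in R26 CD44-, from 108348 to 155865 in R26 CD44+, from 46895 to 50503 in OG CD44- and from 21607 to 25870 in OG CD44+. The 10 fibroblast and mural markers summed to 114 to 139, 754 to 1534, 733 to 799 and 1626 to 2864 CPM in the same order, and the 10 lymphocyte and plasma cell markers to 16.1 to 27.0, 729 to 1983, 46.0 to 81.2 and 759.7 to 1968 CPM. Macrophage marker sums stayed at or below 40.0 CPM in every library, with Marco, Siglecf and Fcgr1 at 0 in R26 CD44- and Marco at 0 in R26 CD44+. The CD44+ library of animal OG 3 held the highest fibroblast and lymphocyte sums of its group, and that of R26 2 the highest AT2 and lymphocyte sums. Results that change without these animals are said where they stand. In bulk libraries such as these, fewer cells of a type and less RNA per cell cannot be told apart.

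**Figure D1:**
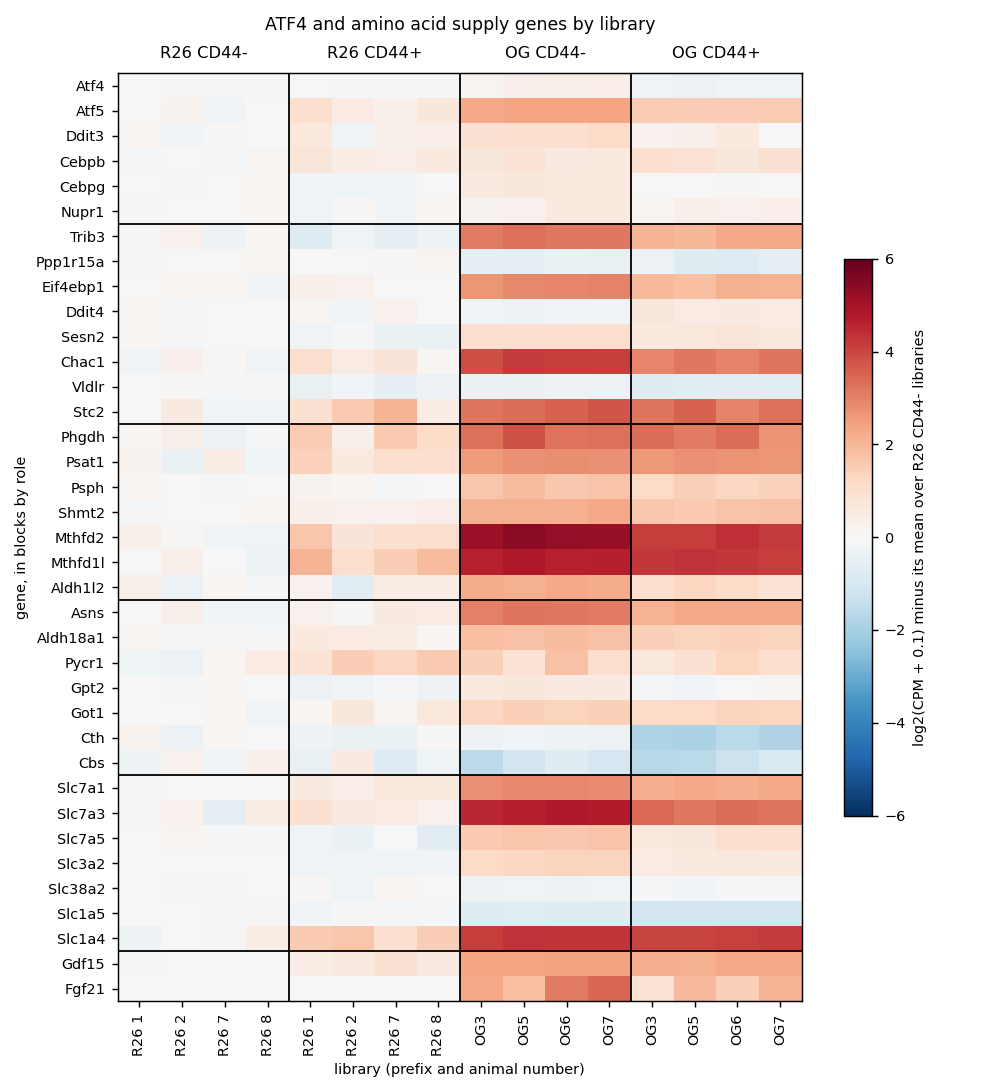
Level of each of the 37 genes (rows, in blocks by role) in each of the 16 libraries (columns, by prefix, sort and animal number), as log2(CPM + 0.1) minus the mean of the R26 CD44- libraries, so that red is higher and blue lower than that group. The OG CD44- block is the reddest for most rows, 21 of the 36 tested genes having all 4 OG CD44- libraries above the other 12.

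The group as a whole stood highest in OG CD44- cells. In 21 of the 36 tested members all 4 OG CD44- libraries lay above the other 12 libraries, against 10.9% of all genes tested. In 22 of the 36, all 8 OG libraries lay above all 8 R26 libraries, against 19.3% of all genes. By mean level, 29 of the 37 members were highest in OG CD44-, 5 in R26 CD44-, 2 in OG CD44+ and 1 in R26 CD44+. This count by mean level was not made over all genes. The heat map of levels shows this order library by library. The comparisons that follow use the same 4 groups in turn and so share libraries.

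The first comparison asked how AT2 cells of the OG animals differed from those of the R26 animals among CD44- cells. 29 of the 36 tested members were higher in OG CD44- and 7 were lower, at a Benjamini-Hochberg adjusted p under 0.05 in a quasi-likelihood test (edgeR). Over all genes 39.4% were called higher and 29.6% lower. The median log2 fold change of the members was 1.69, that of all genes 0.12. With TMM scaling against an OG library, 5282 of all genes were called higher and 5290 lower. Upper quartile scaling gave 5119 and 5440, where the settings used here gave 6113 and 4592. For 29 members all 4 OG libraries lay above all 4 R26 libraries, where 38.6% of all genes did so, and for 6 they lay below, where 29.0% did. AT2 marker sums were lower, AT1 marker sums higher (4067 to 4509 against 1681 to 1868 CPM) and fibroblast sums higher in OG CD44- than in R26 CD44-. By list, 6 of 7 tested macrophage and monocyte markers were higher (list median log2 3.49), though low in sum (37.3 to 40.0 against 19.3 to 24.2 CPM). Of the ciliated cell markers 9 of 10 were higher (1.22). Of 6 tested lymphocyte and plasma cell markers 3 were higher and 1 lower (1.21). Of 9 tested endothelial markers 3 were higher and 1 lower (0.31), and 2 of 10 club cell markers were lower (-0.30). The part of these cells in the differences was not tested.

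Among the transcription factors, Atf4 itself moved least. Atf4 (chr15:80255184-80257545), the central factor of the response, stood at 122, 132, 113 and 129.9 CPM in R26 CD44-, 124, 115, 118 and 129 in R26 CD44+, 139, 152, 157 and 165 in OG CD44- and 107, 97.3, 104 and 103 in OG CD44+. The OG CD44- libraries were all above the rest and the OG CD44+ libraries all below, so that Atf4 had both its highest and its lowest group in OG animals. Its log2 fold change in OG CD44- against R26 CD44- was 0.30 ± 0.06 (adjusted p = 5.73e-05), which is 0.19 above the median of all genes. Over the alternatives other than a 1.5-fold minimum that value ran from 0.15 to 0.36 and stayed called. Atf5, a related factor that is also under translational control, stood at 32.2, 37.8, 29.5 and 32.1 CPM in R26 CD44- and at 160.1, 169.6, 169 and 169 in OG CD44-, groups far apart and each tight. It was 5.08-fold higher in OG CD44- (log2 2.35 ± 0.09, adjusted p = 6.79e-15). Ddit3, which encodes CHOP, was at 10.5, 8.58, 10.2 and 9.43 CPM in R26 CD44- and 18.5, 19.4, 19.5 and 21.8 in OG CD44-, 2.04-fold higher and without overlap (adjusted p = 2.40e-07). Cebpb and Cebpg, C/EBP factors that pair with ATF4 and CHOP, were 1.58-fold and 1.52-fold higher, and the small chromatin-associated stress protein gene Nupr1 1.35-fold, so all 6 factors of the list were called higher in OG CD44-. Parts of Atf5, Ddit3 and Cebpb overlap genes on the opposite strand (4.11%, 3.97% and 20.7% of their exonic bases with Nup62 or Il4i1, Mars and Tmem189), and the strand setting of the counting is not given in the sources used here.

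The feedback genes separated into 5 that were higher and 3 that were lower, where 39.4% and 29.6% of all genes were. Trib3 (chr2:152337425-152344060), a pseudokinase that binds ATF4 and restrains it, was at 11.02, 14.1, 9.47 and 13.0 CPM in R26 CD44- libraries and 104, 117, 106 and 106 in OG CD44-. Chac1, which degrades glutathione, was at 1.53, 2.17, 1.84 and 1.49 CPM in R26 CD44- and 26.6, 33.3, 32.3 and 32.4 in OG CD44-. Both rose with no overlap, Trib3 by 9.13-fold (log2 3.19 ± 0.10, adjusted p = 3.61e-17) and Chac1 by 17.7-fold (log2 4.15 ± 0.15, adjusted p = 1.97e-17). Eif4ebp1, whose product 4E-BP1 binds the cap-binding factor eIF4E and blocks cap-dependent translation, went from 5.39 ± 0.500 to 39.7 ± 3.67 CPM (adjusted p = 1.61e-17). Sesn2, a leucine sensor upstream of mTORC1, was 2.02-fold higher. Stc2, a secreted glycoprotein, was 14.5-fold higher (log2 3.86 ± 0.34), but from only 14 counts over the 4 R26 CD44- libraries. Lower in OG CD44- were Ppp1r15a, which encodes GADD34, the subunit that directs a phosphatase to eIF2alpha (149 ± 12.4 to 105 ± 4.73 CPM, log2 -0.50 ± 0.07, adjusted p = 2.07e-06), the lipoprotein receptor gene Vldlr (log2 -0.36 ± 0.06) and Ddit4, an inhibitor of mTORC1 (log2 -0.25 ± 0.07).

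All 7 serine, glycine and mitochondrial one-carbon enzymes were higher in OG CD44- cells, where 39.4% of all genes were, with a median log2 fold change of 2.69. Mthfd2 (chr6:83305704-83326011), a mitochondrial folate enzyme that is low in most adult tissues, was at 1.77, 1.499, 1.25 and 1.23 CPM in R26 CD44- and 55.5, 64.4, 59.0 and 56.8 in OG CD44-. Every OG library held more than the highest R26 library by a wide margin, and the difference of 41.3-fold (log2 5.37 ± 0.13, adjusted p = 1.68e-20) was the largest among the members. Mthfd1l, the next mitochondrial folate step, which releases formate, went from 0.589 ± 0.123 to 17.3 ± 1.003 CPM, 29.3-fold higher. Shmt2, which splits serine to glycine in mitochondria, went from 11.7 ± 0.597 to 53.3 ± 2.71 CPM (log2 2.18 ± 0.07), and Aldh1l2, which oxidises formyl-folate there, from 3.66 ± 0.686 to 17.2 ± 0.610 CPM (log2 2.23 ± 0.16). The enzymes that make serine from a glycolytic intermediate rose too. Phgdh, the first of them, was 13.2-fold higher but stayed low, at 4.56, 6.35, 4.39 and 4.55 CPM in OG CD44- after 0.402, 0.500, 0.263 and 0.323 in R26 CD44- (20 counts in all). Psat1, the second, was 6.46-fold higher and Psph, the third, 3.34-fold. Per kilobase of exon in OG CD44-, Psat1 stood at 8.04 ± 0.519 CPM, Psph at 2.86 ± 0.290 and Phgdh at 2.00 ± 0.373, while Shmt2 stood at 17.1 ± 0.873 and Mthfd2 at 16.9 ± 1.13, levels of the last pair that lie within each other's spread. Of Psph and Aldh1l2, 10.4% and 14.1% of the exonic bases are shared with a gene on the opposite strand.

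Of the 7 enzymes for asparagine, proline, alanine, aspartate and cysteine, 5 were higher and 2 lower, where 39.4% and 29.6% of all genes were. Asns (chr6:7675165-7693209), which makes asparagine and is a classic amino acid response gene, was at 13.4, 16.3, 11.98 and 12.01 CPM in R26 CD44- and 109.7, 124, 118 and 118 in OG CD44-, 8.80-fold higher with no overlap (log2 3.14 ± 0.09, adjusted p = 4.86e-19). Aldh18a1 and Pycr1, the first and last steps from glutamate to proline, were 3.49-fold and 2.54-fold higher, and the transaminase genes Gpt2 and Got1 1.495-fold and 2.58-fold. Both transsulfuration genes went the other way. Cbs, the entry from homocysteine to cysteine, fell from 9.67 ± 2.22 to 4.40 ± 1.03 CPM (log2 -1.12 ± 0.25, adjusted p = 4.31e-04), and Cth, which releases cysteine, was slightly lower with overlapping libraries (30.5 ± 4.91 and 24.8 ± 1.60 CPM, log2 -0.30 ± 0.11, adjusted p = 0.0162). The Cth call was lost with no filter on low counts (adjusted p = 0.0519).

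Among the 7 transporters 5 were higher and 2 lower, where 39.4% and 29.6% of all genes were. Slc7a3 (chrX:101079146-101090452), a cationic amino acid transporter, was at 0.483, 0.666, 0.329 and 0.775 CPM in R26 CD44- and 14.6, 16.04, 17.9 and 17.2 in OG CD44-, and its paralog Slc7a1, the arginine and lysine transporter CAT1, at 17.7, 16.5, 16.6 and 17.2 and 112, 124, 126 and 121 CPM. Slc1a4, which exchanges alanine, serine and cysteine, was at 4.02, 4.91, 4.61 and 6.98 CPM in R26 CD44- and 91.8, 102, 102 and 100.4 in OG CD44-. In none of these did the groups come near each other, with log2 fold changes of 4.85 ± 0.19, 2.83 ± 0.06 and 4.25 ± 0.12. Slc3a2, the heavy chain shared by several exchangers, rose from 263 ± 4.39 to 635 ± 21.2 CPM, and Slc7a5, the light chain that carries leucine into cells with it, from 33.7 ± 2.78 to 104 ± 3.86 CPM. The glutamine transporter gene Slc1a5 was instead 1.63-fold lower (log2 -0.71 ± 0.04, adjusted p = 3.52e-13) and Slc38a2, a sodium-coupled transporter of small neutral amino acids, 1.21-fold lower. The levels of Slc1a5 and Slc1a4 came together with this. Per kilobase of exon, R26 CD44- cells held Slc1a5 at 40.7 ± 1.74 CPM and Slc1a4 at 1.31 ± 0.327, and OG CD44- cells held Slc1a5 at 24.9 ± 0.446 and Slc1a4 at 25.2 ± 1.22, 2 levels within each other's spread.

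Both secreted stress cytokines were higher. Gdf15, a circulating factor that lowers appetite, was at 10.9, 11.7, 11.6 and 11.8 CPM in R26 CD44- libraries and 60.5, 60.2, 61.6 and 62.0 in OG CD44-, 5.30-fold higher with tight groups (adjusted p = 5.35e-18). Fgf21, a hormone of fasting and mitochondrial stress, had no count in any of the 8 R26 libraries, and 7, 3, 17 and 15 counts in OG CD44- and 1, 4, 2 and 4 in OG CD44+. Its mean level was 0.598 CPM in OG CD44-, at least 10.98-fold higher than the 3 counts over the R26 CD44- group that a count of 0 allows, and 0.209 CPM in OG CD44+, at least 2.85-fold higher than that floor in R26 CD44+. Exact two-sided permutation tests over libraries gave p = 0.0286 for each, the smallest that 4 against 4 libraries can give, and 0.0429 after Benjamini-Hochberg adjustment over the 3 Fgf21 tests. OG CD44+ and OG CD44- overlapped in Fgf21 (exact permutation p = 0.0857, adjusted 0.0857), and floors cover counting error only.

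**Figure D2:**
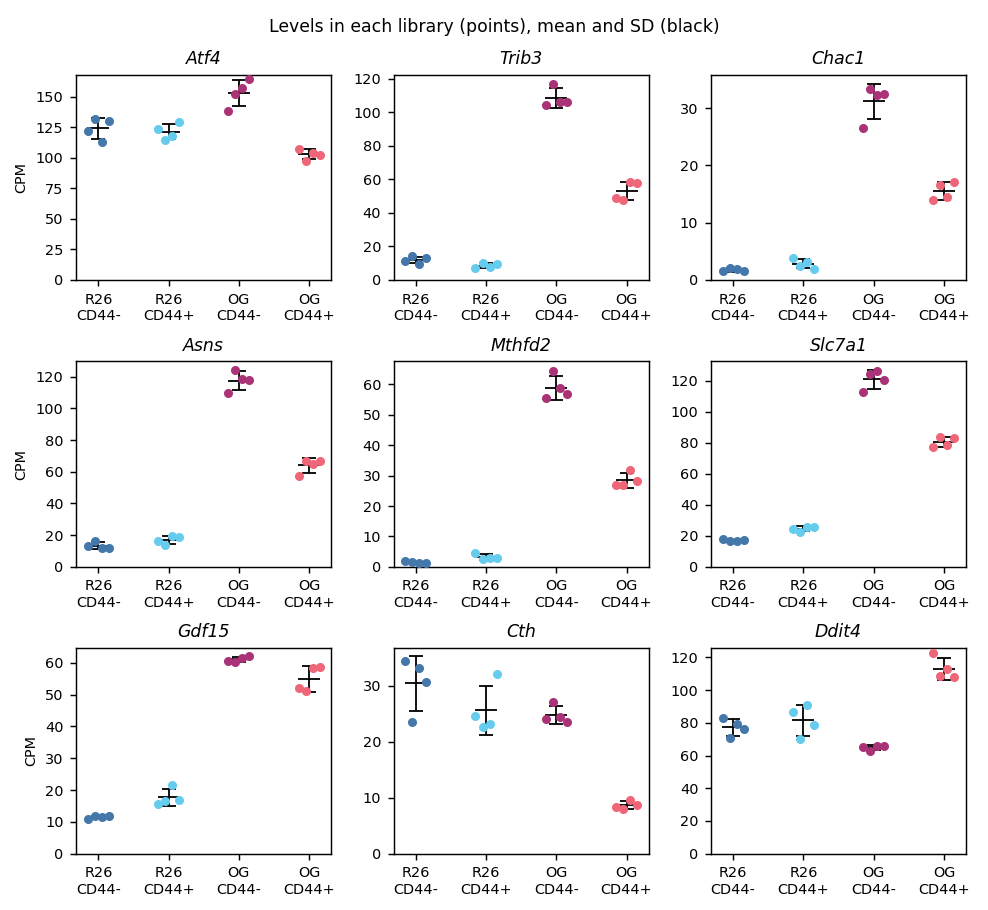
CPM in each library (points) with the mean and SD of each group (black) for single members, 1 panel a gene, with the 4 groups on the horizontal axis and each vertical axis starting at 0. For the Mthfd2 panel the OG CD44- libraries sit between 55.5 and 64.4 CPM, above the OG CD44+ libraries at 26.8 to 32.0 and the R26 libraries at or below 4.68.

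Among CD44+ cells the median OG against R26 log2 fold change of the members was 0.91, where it was 1.69 among CD44- cells. Over all genes these medians were -0.01 and 0.12. The difference kept its direction for the serine and one-carbon enzymes and most transporters. 27 of the 36 were higher in OG CD44+ than in R26 CD44+, 6 were lower and 3 were not called, with 34.5% of all genes called higher and 34.6% lower. TMM scaling against an OG library called 5852 of all genes higher and 5008 lower here. Upper quartile scaling gave 4857 and 5813, where the settings used here gave 5358 and 5368. By marker list, 10 of 10 AT2 markers (list median log2 -1.55) and 8 of 9 tested endothelial markers (-2.50) were lower in OG CD44+. Of the ciliated cell markers 9 of 10 were higher (1.47), of the AT1 markers 7 of 10 were higher and 3 lower (1.03), and fibroblast and mural markers were divided, 3 higher and 3 lower (-0.12), although their sum was higher. Of 10 club cell markers 5 were higher and 3 lower (0.20). Of 7 tested macrophage and monocyte markers 4 were higher and 1 lower (1.69), and of 6 tested lymphocyte and plasma cell markers 2 were lower (-0.37). The part of these cells in the differences was not tested. All 7 serine, glycine and one-carbon enzymes were called higher, from Mthfd2 (3.27 ± 0.969 to 28.5 ± 2.44 CPM, log2 3.10 ± 0.13) down to Aldh1l2 (log2 0.89 ± 0.18). Trib3 stayed 6.22-fold higher, Chac1 5.52-fold, Asns 3.73-fold, Slc1a4 6.37-fold and Slc7a3 7.04-fold. 

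Of the 6 transcription factors 4 were called higher in this comparison and 1 lower, where 34.5% and 34.6% of all genes were. Their median log2 fold change was 0.25, and 0.63 among CD44- cells. Atf4 was lower in OG CD44+ than in R26 CD44+ (log2 -0.24 ± 0.06, adjusted p = 8.63e-04), with no overlap between the groups. Ddit3 was at 12.1 ± 2.86 and 11.96 ± 1.86 CPM, a log2 difference of -0.02 ± 0.14 that did not pass the test (adjusted p = 0.887). Atf5 was still 1.83-fold higher. Cebpb, with overlapping libraries, and Nupr1 were called higher as well (log2 0.33 ± 0.08 and 0.33 ± 0.10). Pycr1 (log2 -0.33 ± 0.26, adjusted p = 0.258) and Slc38a2 (log2 -0.11 ± 0.06, adjusted p = 0.101) were the other members not called, and Slc38a2 was called lower in 4 of 25 alternatives, with the lowest adjusted p, 0.000975, without both libraries of R26 2. Cth, only slightly lower in OG among CD44- cells, was 2.97-fold lower in OG CD44+ (24.7, 22.7, 23.2 and 32.1 against 8.30, 8.04, 9.64 and 8.68 CPM), and Slc1a5 1.97-fold lower. Cbs, Ppp1r15a and Vldlr were called lower as well (log2 -1.19 ± 0.27, -0.65 ± 0.07 and -0.33 ± 0.06). Gpt2 and Cebpg were called slightly higher, Gpt2 not without the CD44+ library of R26 1, OG 6 or OG 7 (adjusted p from 0.0715 to 0.104). Ddit4, lower in OG among CD44- cells, was higher in OG among CD44+ cells (log2 0.47 ± 0.07, adjusted p = 1.42e-06).

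**Figure D3:**
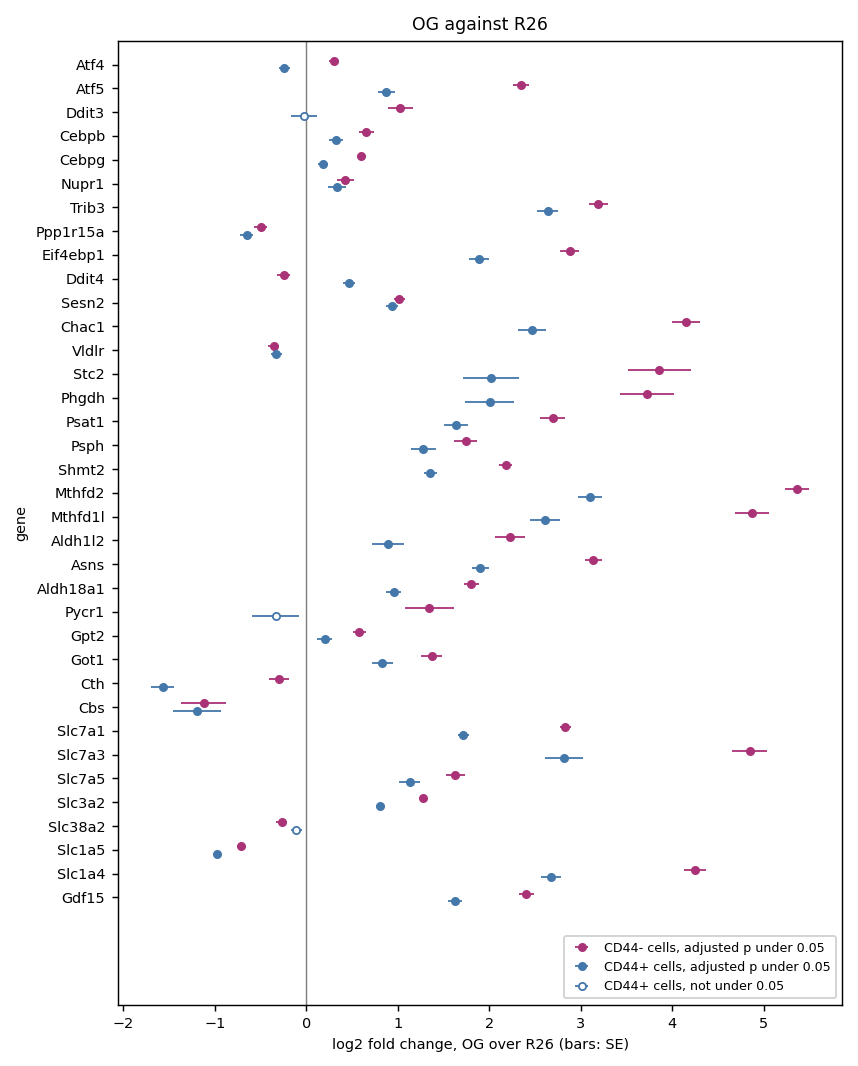
Log2 fold change of OG against R26 (horizontal axis, point and SE) for each of the 36 tested members (vertical axis), drawn separately for CD44- and CD44+ cells, with filled points where the adjusted p was under 0.05. In CD44- cells the values reach from -1.12 for Cbs to 5.37 for Mthfd2, and in CD44+ cells from -1.57 for Cth to 3.10 for Mthfd2.

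The study's main question, how CD44+ AT2 cells differ from CD44- cells, was addressed first within OG animals, where most members fell. 23 of the 36 were lower in OG CD44+ than in OG CD44-, 3 were higher and 10 were not called, with 28.0% of all genes called lower and 22.3% higher. The median log2 fold change was -0.43, against -0.06 for all genes. 24 members had all 4 CD44+ libraries below all 4 CD44- libraries, where 28.4% of all genes did, and 2 had them above, where 22.6% did. With TMM scaling against an OG library, 3903 of all genes were called higher and 3451 lower, and with upper quartile scaling 4140 and 3097, where the settings used here gave 3464 and 4351. In the same comparison 10 of 10 AT2 markers (list median log2 -0.93) and 6 of 9 tested endothelial markers (-0.73) were lower in OG CD44+. All 10 markers each of fibroblast and mural (1.19), ciliated (1.89) and club cells (2.58) were higher, as were 5 of 6 tested lymphocyte and plasma cell markers (2.93), and the club cell markers summed to 643 to 765 CPM in OG CD44- and 1877 to 2587 in OG CD44+. Of 10 AT1 markers 5 were higher and 2 lower (0.12), and of 7 tested macrophage and monocyte markers 1 was higher and 1 lower (-0.20). The part of these cells in the differences was not tested. Without both libraries of OG 3 the count of higher members was 1 in place of 3, as it was without the CD44- library of OG 3, 6 or 7 or the CD44+ library of OG 3 or 7.

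Atf4 was 1.49-fold lower in OG CD44+ (log2 -0.58 ± 0.06, adjusted p = 2.28e-08), Atf5 1.79-fold, Ddit3 1.66-fold and Cebpg 1.49-fold. Cebpb was called higher, by a log2 of 0.20 ± 0.08 (adjusted p = 0.0320) with overlapping libraries, and lost that call without the CD44- library of OG 3, 6 or 7 or the CD44+ library of OG 3, 5 or 7 (adjusted p from 0.0598 to 0.132). Nupr1 was at log2 -0.15 ± 0.09 (adjusted p = 0.196, and 0.0364 with the animal as a block). Of the feedback genes, Trib3 fell 2.04-fold to 49.0, 47.5, 58.2 and 57.7 CPM, Chac1 2.00-fold to 13.9, 16.6, 14.5 and 17.1 CPM and Eif4ebp1 1.83-fold, with Sesn2 (log2 -0.38 ± 0.06) and Vldlr (log2 -0.33 ± 0.06) falling less. These levels still lay well above those of either R26 group for Trib3, Chac1 and Eif4ebp1. Stc2 and Ppp1r15a did not pass the test (log2 -0.21 ± 0.24 and -0.10 ± 0.07), although Ppp1r15a was called lower without the CD44+ library of OG 3 (adjusted p = 0.0277).

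Ddit4 ran against the rest. Ddit4 (chr10:59949675-59951770), also known as REDD1, which holds mTORC1 down in hypoxia and under glucocorticoids as well as under ATF4, was at 65.2, 62.9, 65.9 and 65.8 CPM in OG CD44- and 123, 108, 113 and 108 in OG CD44+. In R26 cells it was at 83.1, 70.5, 79.2 and 76.0 CPM in CD44- and 86.7, 69.8, 90.8 and 78.5 in CD44+, so that OG CD44+ stood above all other libraries and OG CD44- below them. The rise in OG CD44+ was 1.74-fold (log2 0.80 ± 0.07, adjusted p = 1.22e-09).

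Among the enzymes the size of the CD44 difference in OG cells varied, and genes of a pathway were not tested against each other. The mitochondrial folate genes Aldh1l2 (log2 -1.15 ± 0.15) and Mthfd2 (log2 -1.05 ± 0.09) fell 2.22-fold and 2.07-fold. Shmt2, Mthfd1l and Psph fell less, with log2 values of -0.52 ± 0.06, -0.43 ± 0.12 and -0.41 ± 0.12. Phgdh and Psat1, the first steps of serine synthesis, did not pass the test, with log2 values of -0.29 ± 0.21 and -0.05 ± 0.12 and adjusted p of 0.264 and 0.732. Asns fell 1.83-fold to 57.4, 67.0, 65.1 and 66.6 CPM, Gpt2 1.53-fold and Aldh18a1 1.35-fold, while Got1, Pycr1 and Cbs were not called (log2 -0.13 ± 0.11, -0.39 ± 0.25 and -0.27 ± 0.27). Cth showed the steepest fall of the members. Cth (chr3:157894248-157925081) was at 24.1, 27.2, 24.5 and 23.5 CPM in OG CD44- and 8.30, 8.04, 9.64 and 8.68 in OG CD44+, 2.86-fold lower (log2 -1.52 ± 0.12, adjusted p = 1.03e-09), whereas the R26 groups stood at 30.5 ± 4.91 and 25.7 ± 4.39 CPM.

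Of the 7 transporters 5 fell, where 28.0% of all genes did. Slc7a3 fell 2.70-fold to 6.58, 5.59, 6.40 and 5.81 CPM, Slc7a5 1.73-fold, Slc3a2 1.62-fold, Slc7a1 1.499-fold and Slc1a5 1.33-fold. Slc1a4 was at 86.4, 85.1, 86.7 and 93.2 CPM, with a log2 of -0.17 ± 0.09 (adjusted p = 0.109, and 0.0133 with the animal as a block). Slc38a2 was called slightly higher (log2 0.15 ± 0.06, adjusted p = 0.0342), a call lost when any single OG library other than the CD44+ library of OG 5 was left out (adjusted p from 0.0513 to 0.0954). Gdf15 was at 52.03, 51.0, 58.4 and 58.6 CPM in OG CD44+, all below the OG CD44- libraries, but its log2 of -0.15 ± 0.07 did not pass the test (adjusted p = 0.0783, and 0.0325 with the animal as a block).

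In R26 animals the same sort gave a mixed picture. 16 of the 36 members were higher in R26 CD44+ than in R26 CD44-, 7 were lower and 13 were not called, with 21.6% of all genes called higher and 15.4% lower. The median log2 fold change was 0.25, against -0.02 for all genes. 10 members had all 4 CD44+ libraries above, where 17.2% of all genes did, and 5 had them below, where 11.6% did. TMM scaling against an OG library called 2979 of all genes higher and 4824 lower, where the settings used here gave 3357 and 2393, and DESeq2 size factors gave 3174 and 3435. Leaving out any single R26 library shifted the median of all genes by -0.065 to -0.075 and left more genes called lower than higher. The part of this shift in the member calls that change without an R26 library was not tested. All 10 AT2 markers were lower in R26 CD44+ (list median log2 -0.55). Higher were 10 of 10 fibroblast and mural markers (3.07), 9 of 10 club cell markers (1.72, summing to 566 to 1192 CPM in CD44- and 1839.8 to 3332 in CD44+), 5 of 6 tested lymphocyte and plasma cell markers (4.13), 8 of 9 tested endothelial markers (2.21), 8 of 10 AT1 markers (1.65) and 8 of 10 ciliated cell markers (1.56). So were 4 of 7 tested macrophage and monocyte markers (1.68). The part of these cells in the differences was not tested.

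Of the 7 serine and one-carbon enzymes 5 rose, from low levels, where 21.6% of all genes did. Mthfd1l stood at 0.563, 0.750, 0.592 and 0.452 CPM in R26 CD44- and 2.72, 1.31, 1.79 and 2.45 in R26 CD44+, 3.56-fold higher and without overlap (log2 1.83 ± 0.25, adjusted p = 2.18e-06). Mthfd2 stood at 4.68, 2.49, 2.87 and 3.02 CPM in R26 CD44+, 2.32-fold higher, and Psat1 at 13.4, 7.602, 10.6 and 10.5 CPM, 2.00-fold higher. Phgdh (log2 1.43 ± 0.37) and Shmt2 (log2 0.31 ± 0.08) were called as well, while Psph and Aldh1l2 were not (log2 0.05 ± 0.15 and 0.19 ± 0.19). Pycr1 rose 2.45-fold, Aldh18a1 1.33-fold, Got1 1.33-fold and Asns 1.29-fold, and Gpt2 fell 1.18-fold. With a single library left out, 3 of these calls were lost in some fits. Shmt2 lost its call without the CD44+ library of R26 8 (adjusted p = 0.0532). Asns lost it without either library of R26 7 or R26 8 (0.0714 to 0.0996), and Got1 without either library of R26 2 or R26 8 (0.0505 to 0.133). Slc1a4 showed the clearest rise of a transporter, from 4.02, 4.91, 4.61 and 6.98 CPM to 14.9, 16.3, 10.2 and 14.1 (log2 1.41 ± 0.14, adjusted p = 1.22e-07), followed by Slc7a1 (log2 0.53 ± 0.07). Slc3a2 and Slc1a5 were lower (log2 -0.22 ± 0.04 and -0.14 ± 0.04), and Slc7a3, Slc38a2 and Slc7a5 were not called, with log2 values of 0.60 ± 0.30, -0.01 ± 0.06 and -0.29 ± 0.12 (adjusted p = 0.0607 for Slc7a5). Slc7a5 was called lower in 14 of 26 alternatives, among them the animal as a block (adjusted p = 0.0453) and the omission of any single R26 library (lowest adjusted p 0.00106, without the CD44+ library of R26 7).

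Of the 14 factors and feedback genes, 4 were higher and 4 lower in R26 CD44+, where 21.6% of all genes were higher and 15.4% lower. Atf4 was at a log2 of -0.03 ± 0.06 (adjusted p = 0.719), its CD44- and CD44+ libraries interleaved. Atf5 and Cebpb were higher (log2 0.63 ± 0.10 and 0.53 ± 0.08) and Cebpg lower (log2 -0.15 ± 0.06), while Nupr1 and Ddit3 did not pass the test (log2 -0.05 ± 0.10 and 0.33 ± 0.14, adjusted p = 0.712 and 0.0751, and for Ddit3 0.0367 with the animal as a block and 0.0125 without the CD44+ library of R26 2). Trib3 fell to 6.84, 9.86, 7.99 and 9.61 CPM (log2 -0.48 ± 0.13, adjusted p = 0.00702) while Chac1 rose to 3.75, 2.49, 3.05 and 1.88 CPM (log2 0.68 ± 0.21, adjusted p = 0.0114), both with overlapping libraries. Without the CD44- library of R26 8 or the CD44+ library of R26 1 the call of Chac1 was lost (adjusted p = 0.0562 and 0.110). Sesn2 and Vldlr were lower (log2 -0.30 ± 0.07 and -0.36 ± 0.06), Stc2 higher from a very low level (log2 1.63 ± 0.44), and Ppp1r15a, Eif4ebp1 and Ddit4 were not called. Gdf15 rose 1.55-fold to 15.7, 16.6, 21.7 and 16.96 CPM without overlap. Cth, at log2 -0.25 ± 0.11 (adjusted p = 0.0857), was called lower in 8 of 26 alternatives, among them the animal as a block (adjusted p = 0.0220) and the omission of the CD44+ library of R26 8 (0.00134). Cbs did not pass the test (log2 -0.20 ± 0.24, adjusted p = 0.554, and 0.0240 without the CD44+ library of R26 2).

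**Figure D4:**
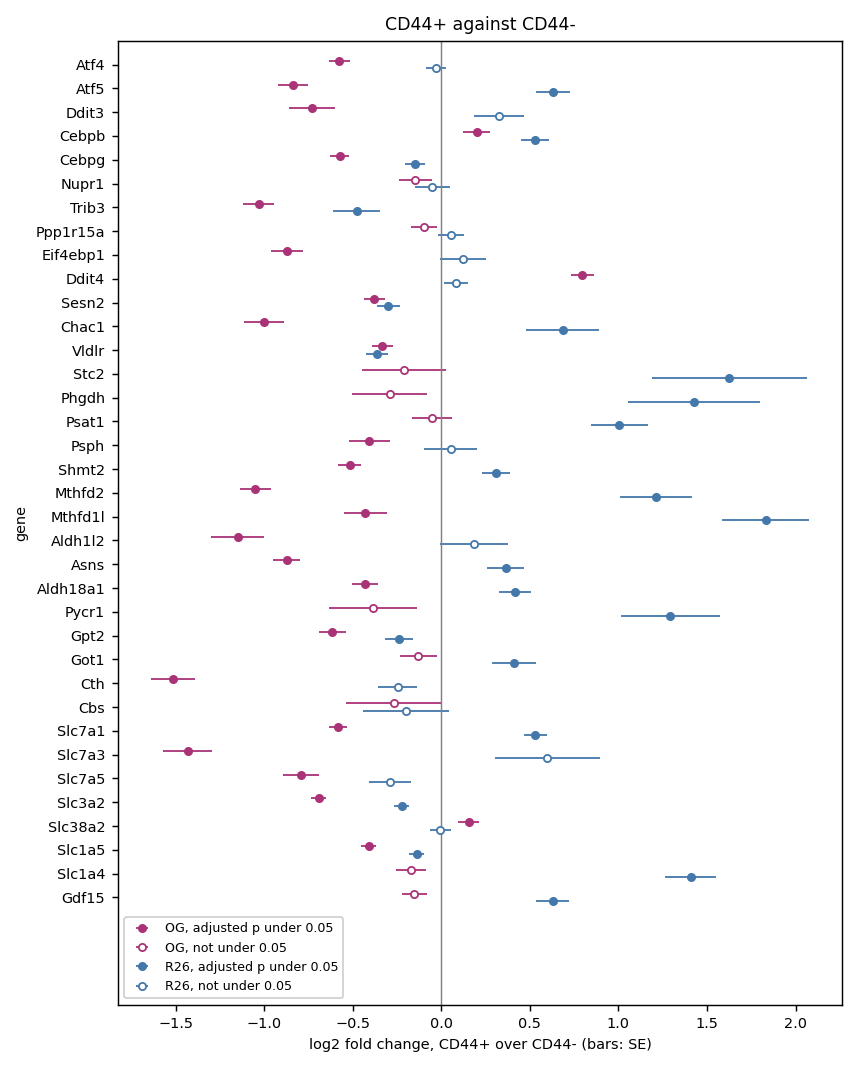
Log2 fold change of CD44+ against CD44- (horizontal axis, point and SE) for each of the 36 tested members (vertical axis), drawn separately for OG and R26 animals, with filled points where the adjusted p was under 0.05. The OG values reach from -1.52 for Cth to 0.80 for Ddit4, and the R26 values from -0.48 for Trib3 to 1.83 for Mthfd1l.

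The difference between the prefixes in the CD44 effect was tested as an interaction. The CD44+ against CD44- change was lower in OG than in R26 for 28 of the 36 members, higher for 1 and not called for 7, with 18.1% of all genes called lower and 6.57% higher. The median interaction was -0.80, that of all genes -0.10. Marker lists gave called interactions as well, negative for 9 of 9 tested endothelial markers (median -2.65), 8 of 10 fibroblast and mural markers (-1.75), 7 of 10 AT1 markers (-1.33) and 6 of 10 AT2 markers (-0.38). They were also negative for 3 of 6 tested lymphocyte and plasma cell markers (-1.72) and 1 of 7 macrophage and monocyte markers (-1.37). Positive ones were called for 2 of 10 ciliated (0.34) and 2 of 10 club cell markers (0.49). The part of these cells was not tested. Scaling matters here, since TMM against an OG library shifted the median of all genes by 0.15 and turned the split of all genes to 2369 higher and 1697 lower, from 1019 and 2806. The largest interactions were those of Mthfd1l (-2.26 ± 0.27, adjusted p = 1.54e-06), Mthfd2 (-2.26 ± 0.22, adjusted p = 6.77e-08) and Slc7a3 (-2.03 ± 0.33, adjusted p = 7.79e-05), followed by Stc2, Phgdh, Chac1, Pycr1, Slc1a4 and Atf5. For Mthfd2 the mean levels in the 4 groups were 1.44 ± 0.254 and 3.27 ± 0.969 CPM in R26 CD44- and CD44+ and 58.9 ± 3.93 and 28.5 ± 2.44 CPM in OG CD44- and CD44+, a rise in R26 beside a fall in OG. Mthfd1l, Shmt2, Asns, Aldh18a1, Slc7a1, Atf5 and Chac1 were also called in opposite directions in the 2 CD44 comparisons. The single positive interaction was that of Ddit4 (0.72 ± 0.10, adjusted p = 5.34e-06), and Slc38a2 (adjusted p = 0.177) joined it in 11 of 25 alternatives, the animal as a block among them (0.0218), making 2 there. Without both libraries of R26 2, or its CD44+ library alone, 3 members had a positive interaction, and 2 had one without any other single R26 library. The median interaction of all genes also shifted in such fits, by 0.114 to 0.123 without any single R26 library. Without any single OG library it shifted by -0.0033 to 0.011. The part of this shift in the interaction calls that change without R26 libraries was not tested. Leaving out any single R26 library ended 1 or more of the interaction calls of Cebpb, Trib3, Gpt2, Got1, Slc7a5 and Slc1a5 (highest adjusted p 0.369, 0.135, 0.206, 0.155, 0.164 and 0.163), as for Cebpb did the CD44- library of OG 5 or the CD44+ library of OG 5 or 6. The call of Stc2 was lost without the CD44+ library of R26 7 (adjusted p = 0.0637). Vldlr and Sesn2 were called lower in CD44+ in both prefixes, and their interactions did not pass the test (0.03 ± 0.09, adjusted p = 0.835, and -0.08 ± 0.09, adjusted p = 0.558). Without the CD44+ library of R26 2 that of Vldlr was 0.23 (adjusted p = 0.0159), and it was also called without both libraries of R26 2.

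Neighbouring genes of the pathway that are not members give the context. The genes named for a list are, unless said otherwise, those with the smallest adjusted p in that comparison and not those with the largest change. Of 17 genes for the eIF2alpha kinases, eIF2, eIF2B and their regulators, 12 were higher and 3 lower in OG CD44- than in R26 CD44-, where 39.4% of all genes were higher and 29.6% lower. Impact, a competitor of the amino acid sensor kinase GCN2 for its activator, was higher (log2 1.74 ± 0.06), Eif2s1, the eIF2alpha subunit itself, was higher (1.12 ± 0.07) and Eif2ak4, which encodes GCN2, was lower (-1.24 ± 0.07). In OG CD44+ against OG CD44-, 1 of the 17 was higher and 9 lower (22.3% and 28.0% of all genes), among them Impact (-0.92 ± 0.06), Oma1 (-0.67 ± 0.08), a mitochondrial protease that relays stress to eIF2alpha, and the eIF2B subunit gene Eif2b4 (-0.50 ± 0.09). In R26 CD44+ against R26 CD44-, 2 of the 17 were called, Oma1 (-0.44 ± 0.08) and Eif2b5 (-0.31 ± 0.08), both lower (21.6% of all genes were higher and 15.4% lower).

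A further 18 genes reported as ATF4 or CHOP targets had 11 higher and 3 lower in OG CD44- against R26 CD44-, beside the same 39.4% and 29.6% of all genes. Slc7a11, the cystine importer that pairs with Slc3a2, was at 1.21, 0.500, 1.12 and 1.03 CPM in R26 CD44- and at 542, 626, 617 and 603 CPM in OG CD44- (log2 9.24 ± 0.13), and Ndrg1 and Sqstm1 were higher by log2 3.61 ± 0.06 and 1.87 ± 0.06. In OG CD44+ against OG CD44-, 10 of the 18 were lower, where 28.0% of all genes were, among them the tRNA exporter gene Xpot (-0.72 ± 0.07), Slc7a11 (-0.75 ± 0.07) and Sqstm1 (-0.50 ± 0.06), and 1 was higher. That gene, Atf3, was named after its values were seen: it was at 137, 125, 126 and 123 CPM in OG CD44- and 269, 153, 152 and 159.5 in OG CD44+, where the high library is that of animal OG 3. In R26 CD44+ against CD44-, 4 of the 18 were higher, among them Slc7a11 (2.26 ± 0.22) and Ndrg1 (0.99 ± 0.07), and 4 lower, beside 21.6% and 15.4% of all genes.

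The other amino acid lists were more evenly divided. Of 16 tested folate one-carbon and glycine cleavage genes outside the members, 5 were higher and 5 lower in OG CD44- against R26 CD44- (all genes 39.4% and 29.6%), with the mitochondrial serine carrier gene Sfxn1 higher (0.94 ± 0.07) and Mat2a (-1.13 ± 0.07) and the cytosolic Mthfd1 (-0.80 ± 0.06) lower. Of 17 other amino acid synthesis and breakdown genes, 5 were higher and 7 lower, with Gpt, the cytosolic counterpart of Gpt2, lower by log2 -1.99 ± 0.06. Of 18 other amino acid transporters, 8 were higher and 4 lower. Of 22 genes of amino acid sensing at mTORC1, 9 were higher and 10 lower, with Rptor higher (1.18 ± 0.05) and the folliculin genes Flcn (-1.70 ± 0.07) and Fnip2 (-1.39 ± 0.06) lower. The IRE1 and ATF6 arms of the unfolded protein response had 12 of 16 genes higher and 3 lower, among them the chaperone genes Pdia4 (0.75 ± 0.04) and Hspa5 (0.93 ± 0.06) and the degradation adaptor Sel1l (0.71 ± 0.05), with a list median of 0.44 beside 1.69 for the members.

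In OG CD44+ against OG CD44- the unfolded protein list fell with the members, 12 of 16 lower and 1 higher where 28.0% and 22.3% of all genes were, among them the IRE1 gene Ern1 (-0.56 ± 0.05), Sel1l (-0.54 ± 0.05) and Dnajc3 (-0.42 ± 0.04). The mTORC1 list had 11 of 22 lower and 3 higher, among them Rragd (-0.55 ± 0.05). The folate list had 7 of 16 lower and 1 higher, among them Mthfd1 (-0.56 ± 0.06). The other amino acid transporters ran the other way, with 10 of 18 higher and 5 lower, among them the neutral amino acid transporter Slc38a1 (1.81 ± 0.14) and the taurine transporter Slc6a6 (0.64 ± 0.05) on the higher side and the glutamate transporter Slc1a3 (-1.30 ± 0.08) on the lower. The other synthesis and breakdown genes had 4 of 17 higher and 5 lower, among them Gpt (-1.36 ± 0.07). The medians of these 7 lists in this comparison ran from -0.28 to 0.19, beside -0.43 for the members and -0.06 for all genes.

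**Figure D5:**
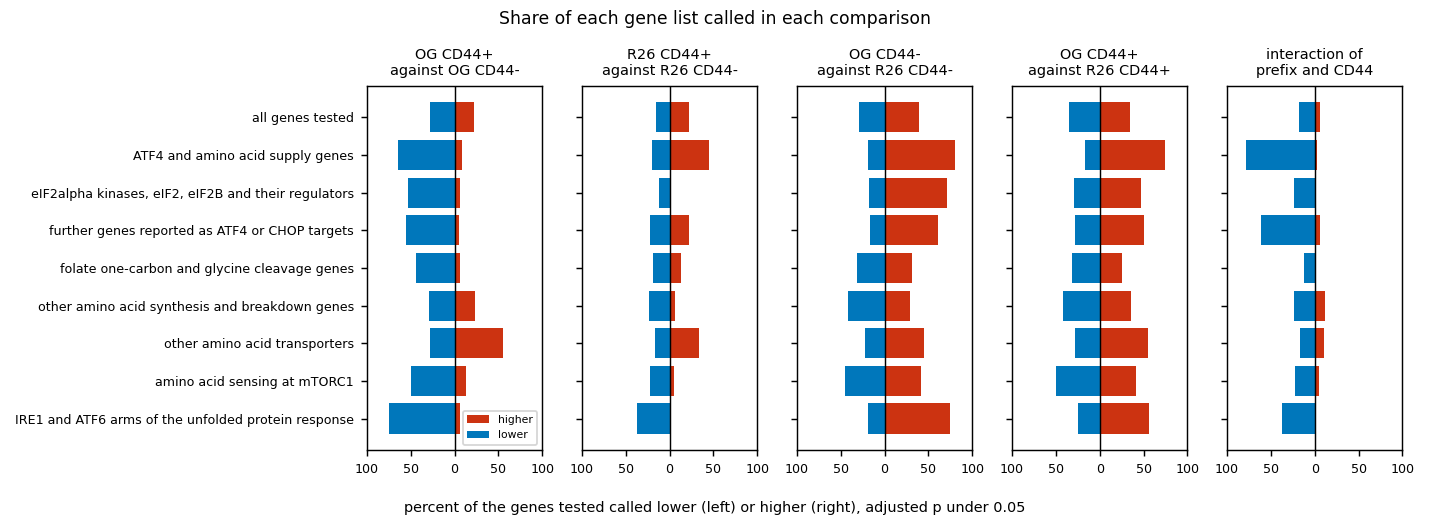
Share of the tested genes of each list called higher (right of 0) or lower (left of 0) at an adjusted p under 0.05, in percent, with 1 panel for each comparison and the interaction. The rows are all 15516 genes tested, the 36 tested genes described here and the 7 pathway lists. The row of the ATF4 and amino acid supply genes lies mostly to the right in both OG against R26 panels (29 and 27 of 36 higher) and mostly to the left in the OG CD44 panel (23 of 36 lower).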

How the data were processed

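Per the submitters' processing notes, reads were aligned with Bowtie2 to mm10, and the authors deposited raw counts per Entrez gene. The Bowtie2 version, the counter, its annotation and its strand setting are not given in the sources used here, and per the labels the kit was stranded. Symbols were matched for 25275 of 27179 identifiers. edgeR 4.0.16 (R 4.3.3, limma 3.58.1) kept 15516 genes (filterByExpr), scaled by TMM and fitted 1 mean per group over all 16 libraries with a robust quasi-likelihood test, Benjamini-Hochberg adjusted over all genes tested, threshold 0.05. CPM used TMM-scaled totals, and the heat map a pseudocount of 0.1 CPM. SE is the absolute log2 fold change over the square root of F. The procedure was tested on simulated data with independent libraries and few changed genes, as many raised as lowered. Such a simulation does not cover pairing by animal or changes as broad as those here.

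The members and the gene lists were chosen with earlier results of these data known. Named were all members, and of each pathway list at most the 3 called genes with the smallest adjusted p per comparison, except Atf3. Same-numbered CD44- and CD44+ columns were taken as 1 animal. Deviations from group means correlated between them at 0.126 to 0.240 in R26 and 0.0199 to 0.0967 in OG. p-values measure the spread between these libraries. Other scalings, filters, DESeq2 1.42.0, a 1.5-fold minimum, the animal block and left-out libraries were tried. Sequences are from RefSeq (GRCm38.p6).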

Additional observations from a re-analysis of the deposited data

Results flagged for a closer look

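Within groups of 4 libraries, 1 library stood apart from the other 3 by Dixon's ratio of the gap to the range in 6 of 146 groups of member values, where chance gives about 1 in 20 groups. In OG CD44-, animal OG 3 was lowest for Atf5 (160.1 CPM), Chac1 (26.6 CPM) and Slc1a4 (91.8 CPM), and animal OG 5 was highest for Trib3 (117 CPM) and Phgdh (6.35 CPM). In R26 CD44+, animal R26 1 was lowest for Slc1a5 (149.5 CPM).

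The CD44 difference of 29 members differed between OG and R26 by the interaction test (edgeR, adjusted p under 0.05). On the log2 scale, OG minus R26, the factors stood at -0.54 for Atf4, -1.47 for Atf5, -1.05 for Ddit3, -0.33 for Cebpb and -0.42 for Cebpg. The feedback genes stood at -0.55 for Trib3, -0.996 for Eif4ebp1, 0.72 for Ddit4, -1.69 for Chac1 and -1.84 for Stc2. The serine and one-carbon enzymes stood at -1.72 for Phgdh, -1.06 for Psat1, -0.83 for Shmt2, -2.26 for Mthfd2, -2.26 for Mthfd1l and -1.34 for Aldh1l2. The other enzymes stood at -1.24 for Asns, -0.85 for Aldh18a1, -1.68 for Pycr1, -0.38 for Gpt2, -0.54 for Got1 and -1.27 for Cth. The transporters stood at -1.12 for Slc7a1, -2.03 for Slc7a3, -0.50 for Slc7a5, -0.47 for Slc3a2, -0.27 for Slc1a5 and -1.58 for Slc1a4, and the cytokine gene Gdf15 at -0.78.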

How the results depend on the processing

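No called member changed direction under any alternative. Apart from the 1.5-fold minimum, calls held under every alternative for 24 of 26 members in OG CD44+ against OG CD44- (not Cebpb and Slc38a2), 16 of 23 in R26 CD44+ against R26 CD44- (not Cebpg, Chac1, Shmt2, Asns, Gpt2, Got1 and Slc1a5), 35 of 36 in OG CD44- against R26 CD44- (not Cth), 31 of 33 in OG CD44+ against R26 CD44+ (not Cebpg and Gpt2) and 22 of 29 interactions (not Cebpb, Trib3, Stc2, Gpt2, Got1, Slc7a5 and Slc1a5). Against a 1.5-fold minimum (edgeR's glmTreat), OG CD44+ against OG CD44- kept 1 member higher and 10 lower. R26 CD44+ against R26 CD44- kept 7 higher and 0 lower (0 lower also at an unadjusted p under 0.05, and 7 lower with no minimum). Kept lower were 2 members in OG CD44- against R26 CD44- and 3 in OG CD44+ against R26 CD44+. At an unadjusted p under 0.05 against that minimum, these had 24 and 22 members higher and 2 and 3 lower. The interaction kept 0 higher (1 at an unadjusted p under 0.05) and 13 lower. Of all genes that minimum left 1483 higher and 362 lower, 2026 and 9, 2551 and 2095, 2154 and 2625, and 55 and 613 in the same order. R26 CD44+ had 4 members lower with at least 50 counts in 4 libraries and 4 in a fit of its 8 libraries. The interaction had 2 higher with TMM against an OG library, 2 with the replicate block of the animal and 3 without both libraries of R26 2. Leaving out each library in turn gave 1 to 3 members higher in OG CD44+ against OG CD44- and 1 to 3 positive interactions. The block changed no other call than the 7 given with it above. For values that were not called, the sign turned as follows, and the cause was not tested. In OG CD44+ against OG CD44-, Psat1 was 0.029 with upper quartile scaling, 0.0035 with TMM against an OG library and 0.0093 in a fit of the 8 libraries. In R26 CD44+ against R26 CD44-, Atf4 was 0.0035 and Slc38a2 0.028 with at least 50 counts, Slc38a2 0.021 with upper quartile scaling and 0.020 in a fit of the 8 libraries, and with TMM against an OG library Ppp1r15a was -0.045, Ddit4 -0.019 and Psph -0.047. There, without both libraries of R26 2, Ppp1r15a was -0.023 and Psph -0.062. Leaving out each library in turn gave -0.064 to 0.053 for Ppp1r15a, -0.012 to 0.12 for Eif4ebp1, -0.051 to 0.079 for Ddit4 and -0.066 to 0.051 for Psph. In OG CD44+ against R26 CD44+, Ddit3 was 0.035 with TMM against an OG library, 0.021 with no filter and -0.14 to 0.11 with each library left out. Of the interactions, TMM against an OG library gave 0.059 for Nupr1, 0.0044 for Ppp1r15a, 0.074 for Sesn2 and 0.084 for Cbs. Without both libraries of R26 2, Nupr1 was 0.069, Sesn2 0.13 and Cbs 0.28. Leaving out each library gave -0.17 to 0.086 for Nupr1, -0.23 to 0.016 for Ppp1r15a, -0.12 to 0.096 for Sesn2 and -0.25 to 0.36 for Cbs. Depth limits Stc2, Phgdh, Mthfd1l, Slc7a3 and Fgf21, which hold few counts in R26 CD44- libraries.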
